A study of Mus musculus with 141 samples.

Results

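The expression of 10 genes of the blood and lymphatic endothelium was examined in inguinal white adipose tissue (iWAT) of inbred mice from the Hybrid Mouse Diversity Panel (HMDP). The genes were chosen by name from the 36558 genes measured, namely *Pecam1*, *Cdh5*, *Kdr*, *Flt1*, *Tek*, *Vegfa*, *Lyve1*, *Prox1*, *Flt4* and *Vegfc*. All 10 were found by their Ensembl identifiers and passed the filter on low counts, although *Prox1* had under 10 counts in 7 libraries and *Flt4* in 1. RNA-seq covered 82 strains in 67 libraries of females and 74 of males, each strain and sex being represented by at most 1 library, and both sexes were present in 59 strains. All mice ate standard chow up to the age of 8 weeks. All then received high-fat, high-sucrose (HF/HS) diet over a period of 8 weeks, so diet was not compared.

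The strains fall into families that their names give. There were 21 female and 23 male libraries of classical inbred strains. The BXD recombinant inbred strains, which descend from C57BL/6J and DBA/2J, gave 9 female and 12 male libraries with the suffix TyJ and 23 female and 22 male libraries with the suffix RwwJ. AXB and BXA strains, which descend from A/J and C57BL/6J, gave 9 and 11 libraries. CXB strains, which descend from substrains of BALB/c and C57BL/6, gave 3 and 3, and BXH strains from C57BL/6J and C3H/HeJ gave 2 and 3. A strain is thus represented by at most a pair of libraries, and p-values within a sex measure the spread between strains. AXB19/PgnJ, AXB19a/PgnJ and AXB19b/PgnJ share a line number in their names but were counted as separate strains. The p-values treat them as independent.

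Endothelial cells line the vessels of adipose tissue and are joined by adhesion proteins such as those encoded by *Pecam1* and *Cdh5*. Blood vessels grow when VEGF-A, a secreted factor made by adipocytes among other cells, binds the receptor encoded by *Kdr*, while *Flt1* encodes a receptor that also acts as a decoy for the ligand and *Tek* encodes the receptor for angiopoietins. Lymphatic vessels, which drain fluid and immune cells, depend on the ligand encoded by *Vegfc*, its receptor encoded by *Flt4* and the transcription factor encoded by *Prox1*, and they carry the hyaluronan receptor encoded by *Lyve1*, which some tissue macrophages carry as well. A lymph node lies within the inguinal fat pad of the mouse and has lymphatic endothelium of its own.

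Several libraries stood apart before any comparison was made. The summed markers of lymphocytes, 7 genes of B and T cells, fell into separate ranges, from 2.63 to 43.6 CPM (counts relative to the library total) in 76 libraries and from 83.7 to 1625 CPM in 65 libraries, of which 33 were female and 32 male. Mammary epithelial markers had a median sum of 427 CPM in females and 1.89 CPM in males. In 3 libraries, 2 labelled female and 1 labelled male, the Y-linked genes went against the label, and these are called by their labels here. The library labelled BXD34/TyJ female was among them and was also the shallowest, with 6269154 counts against a median of 30233245, and mitochondrially encoded genes took 29.9% of its counts. It belongs to no strain with both sexes, so the tests of sex do not contain it. Adipocyte markers summed to between 3968 and 35526 CPM and blood endothelial markers to between 275 and 2094 CPM, so neither cell type was absent from any library.

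Levels of the 10 genes were compared in TPM, a unit scaled for transcript length that allows genes to be set side by side, and they differed widely. By median over all libraries, *Vegfa* stood highest at 169.6 TPM, followed by *Pecam1* at 150.2, *Cdh5* at 111.9, *Kdr* at 42.2, *Flt1* at 29.5, *Tek* at 23.9, *Lyve1* at 11.3, *Vegfc* at 4.50, *Flt4* at 3.71 and *Prox1* at 0.318 TPM. The order was clear for some neighbours and not for others. *Cdh5* was above *Kdr* in every library and *Flt4* above *Prox1* in 140, whereas *Vegfa* exceeded *Pecam1* in 93 and *Vegfc* exceeded *Flt4* in 99, so these last 2 pairs did not separate beyond their spread. The extreme strains named for each gene and sex are those in TPM. In log2 CPM with TMM scaling, the scale of the tests, 25 of these 40 extremes were the same library. The largest discrepancy was the male library of CXB11/HiAJ, the lowest male for *Pecam1*, *Flt1* and *Vegfc* in TPM, which ranked 19, 50 and 22 of 74 from the lowest in log2 CPM. Gene-level values do not separate isoforms, such as the soluble and the membrane form of the *Flt1* product.

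**Figure D1:**
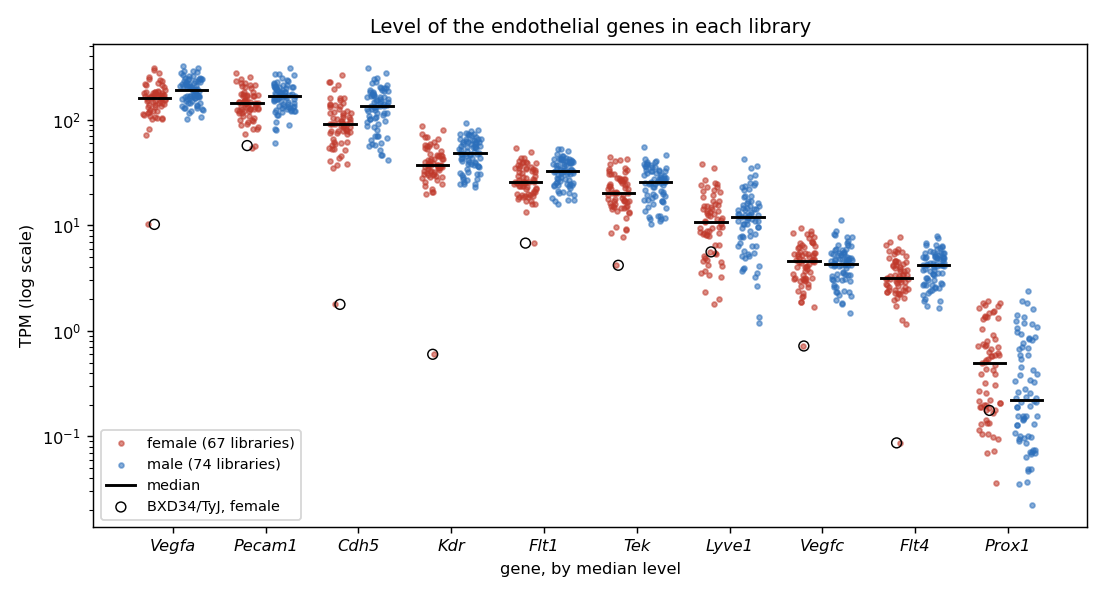
Level of each gene in TPM (log axis) in the 67 female and 74 male libraries, with the median of each sex as a bar and the library labelled BXD34/TyJ female circled. The female medians of *Cdh5*, *Kdr*, *Flt1*, *Tek* and *Flt4* lie below the male ones, that of *Prox1* above, and the circled library falls far below the others for *Kdr*, at 0.599 TPM, and *Cdh5*, at 1.78 TPM.

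The study asked how adipose gene expression differs between the sexes, and the 59 strains with both libraries address this within strains. Of the 10 genes, 7 were lower in females than in males, against 29.8% of the 16765 genes tested, and 1 was higher, against 28.4%. In both directions combined, 58.1% of all genes were called, so a call as such sets few genes apart. The 7 were the vessel genes *Pecam1*, *Cdh5*, *Kdr*, *Flt1* and *Tek*, the ligand *Vegfa* and the lymphatic receptor *Flt4*. The median log2FC of all genes was 0.012. Tests were made with edgeR's quasi-likelihood test with strain in the model and Benjamini-Hochberg adjustment over all genes, and log2FC is female over male. Counts of strains with the higher female value are in log2 CPM. In TPM they were nearly the same for *Cdh5*, with 11 in place of 10, and furthest apart for *Pecam1*, with 21 in place of 11, and on log2(TPM + 1) the test gave the same number of calls, 7 lower and 1 higher. In bulk tissue, fewer endothelial cells and less RNA per cell cannot be told apart.

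*Pecam1* (chr11:106654217-106750628, minus strand, GRCm38), which encodes an adhesion molecule of endothelium, platelets and leukocytes, ranged in females from 54.6 TPM in BXD14/TyJ over a median of 143 to 277 in the library labelled BXD69/RwwJ female, another of those that went against the Y-linked genes. In males it ranged from 60.6 TPM in CXB11/HiAJ over 167 to 309 in BXD71/RwwJ. The ranges overlapped almost wholly, and within strains the female library was the higher in 11 of 59 in log2 CPM and in 21 in TPM. *Pecam1* thus had a log2FC of -0.30 (SE 0.043, adjusted p = 3.07e-08).

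*Cdh5* (chr8:104101625-104144511, plus strand), which encodes the cadherin of endothelial junctions, showed the largest decrease. Its lowest female value apart from BXD34/TyJ was 34.7 TPM in MA/MyJ, its female median 91.7 and its highest 267 in BXD69/RwwJ. Male values ran from 41.8 TPM in NZB/BlNJ over 135.6 to 313 in BXD71/RwwJ. The sexes overlapped, with the female library higher in 10 of 59 strains, and the log2FC of -0.58 (SE 0.086, adjusted p = 4.64e-08) corresponds to a level 1.5-fold lower in females.

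The receptors of the blood vessel wall fell together. *Kdr* (chr5:75932827-75978458, minus strand) ranged in females from 19.9 TPM in BXD14/TyJ, or 0.599 in BXD34/TyJ, over a median of 37.4 to 86.5 in BXD69/RwwJ, and in males from 23.2 in BXH9/TyJ over 48.2 to 92.6 in BXD71/RwwJ. *Flt1* (chr5:147561604-147726011, minus strand) had female values from 13.5 TPM in AXB12/PgnJ, or 6.78 in BXD34/TyJ, over 25.8 to 53.5 in BXD86/RwwJ, and male values from 16 in CXB11/HiAJ over 32.5 to 53.3 in BXD60/RwwJ. *Tek* (chr4:94739289-94874976, plus strand) lay between 7.76 TPM in BXD38/TyJ, or 4.18 in BXD34/TyJ, and 44.4 in PL/J in females around a median of 20.3, and between 10.2 in NZB/BlNJ and 55.3 in AKR/J in males around 25.8. For each of the 3 receptors the sexes overlapped and most strains had the higher value in the male, the female being higher in 14, 16 and 16 of 59 strains. Their fits gave a log2FC of -0.37 (SE 0.067, adjusted p = 3.63e-06) for *Kdr*, -0.33 (SE 0.067, adjusted p = 3.29e-05) for *Flt1* and -0.33 (SE 0.078, adjusted p = 0.000282) for *Tek*.

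Since these 3 receptor genes moved together between the sexes and across strains, their promoter sequences are shown, as RefSeq gives them for GRCm38.p6, from 250 bases upstream of the start site. Windows of this kind were present for 7 of the 10 genes. Capitals mark GGAAG or its reverse complement CTTCC, a form of the core letters bound by ETS factors, a family of transcription factors active in endothelium. Shorter or other forms, such as GGAA alone, were neither searched for nor marked. Each line runs 5′ to 3′ on the strand of the gene. The *Kdr* window (chr5:75978459-75978705, minus strand) leaves out 3 bases that the annotation counts to the gene, *Flt1* is chr5:147726012-147726261 on the minus strand and *Tek* is chr4:94739039-94739288 on the plus strand.
Kdr: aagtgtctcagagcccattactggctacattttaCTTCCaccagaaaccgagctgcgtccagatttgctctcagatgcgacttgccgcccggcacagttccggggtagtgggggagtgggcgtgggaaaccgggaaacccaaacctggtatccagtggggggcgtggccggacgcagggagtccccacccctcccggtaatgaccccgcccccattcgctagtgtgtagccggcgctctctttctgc
Flt1: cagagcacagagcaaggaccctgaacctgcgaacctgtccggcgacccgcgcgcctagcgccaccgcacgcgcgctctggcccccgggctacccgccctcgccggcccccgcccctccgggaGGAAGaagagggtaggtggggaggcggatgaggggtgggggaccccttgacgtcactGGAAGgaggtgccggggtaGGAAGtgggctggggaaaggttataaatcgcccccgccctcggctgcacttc
Tek: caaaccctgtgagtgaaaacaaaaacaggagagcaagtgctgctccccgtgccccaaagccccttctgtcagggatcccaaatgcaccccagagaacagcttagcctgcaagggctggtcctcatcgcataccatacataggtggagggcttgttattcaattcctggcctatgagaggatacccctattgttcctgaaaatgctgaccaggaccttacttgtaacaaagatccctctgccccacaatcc
GGAAG or CTTCC occurred 1 time in the *Kdr* window, on the other strand, 3 times in that of *Flt1* and not at all in that of *Tek*. Among 32851 promoters of the same length 64.1% held them, so their presence sets none of these genes apart. ACGTG is a form of the core letters bound by hypoxia-inducible factors and was held by 16.6% of promoters. GATAA is a form of those bound by GATA factors and was held by 22.6%. Neither was found in the 3 windows on either strand, and other forms of these cores were not searched for. The *Flt1* and *Kdr* windows were rich in G and C, at 70.4% and 61.6%, while that of *Tek*, at 51.2%, was near the median of all promoters, 52.4%.

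*Vegfa* (chr17:46016993-46032369, minus strand), the ligand of *Kdr* and *Flt1* products, ranged in females from 72.5 TPM in AXB12/PgnJ, or 10.2 in BXD34/TyJ, over a median of 162 to 310 in LP/J, and in males from 102.4 in I/LnJ over 192 to 324 in BXD45/RwwJ. The ranges overlapped, and the female library was the higher in 15 of 59 strains. For this ligand gene the fit gave -0.37 (SE 0.083, adjusted p = 0.000127).

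Among the genes listed as lymphatic, the receptor and the transcription factor moved in opposite directions. *Flt4* (chr11:49609263-49652739, plus strand) ranged in females from 1.15 TPM in FVB/NJ, or 0.0866 in BXD34/TyJ, over 3.20 to 7.77 in BXD69/RwwJ, and in males from 1.64 in BXD11/TyJ over 4.20 to 7.99 in BXD85/RwwJ. The sexes overlapped, the female value was the higher in 12 of 59 strains, and *Flt4* had a log2FC of -0.37 (SE 0.060, adjusted p = 4.32e-07). Across libraries *Flt4* followed the summed blood endothelial markers more closely, with r of 0.79 in females and 0.75 in males. With the summed lymphatic endothelial markers, which include *Flt4*, its r was 0.39 and 0.29. *Prox1* (chr1:190118035-190170714, minus strand) ranged in females from 0.0359 TPM in BXD12/TyJ over 0.490 to 1.92 in BXD74/RwwJ, and in males from 0.0224 in BXD14/TyJ over 0.223 to 2.38 in BXD74/RwwJ. The female value was the higher in 45 of 59 strains, although the highest library of all was male. Its log2FC was 0.76 (SE 0.22, adjusted p = 0.00227), and without strain in the model it was 0.43 and did not pass (adjusted p = 0.150). With at least 10 counts required in every library, *Prox1* was not tested.

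*Lyve1* and *Vegfc* did not pass the test of sex. *Lyve1* (chr7:110850607-110863239, minus strand) ranged in females from 1.79 TPM in DBA/2J over 10.7 to 37.9 in BXD74/RwwJ and in males from 1.18 in CE/J over 11.9 to 42.1 in SJL/J, with the female higher in 31 of 59 strains and a log2FC of -0.059 (SE 0.11, adjusted p = 0.671). *Vegfc* (chr8:54077606-54187096, plus strand) ranged in females from 1.69 TPM in BXD14/TyJ, or 0.718 in BXD34/TyJ, over 4.57 to 9.45 in NZW/LacJ and in males from 1.46 in CXB11/HiAJ over 4.35 to 11.2 in AKR/J, with the female higher in 33 of 59 strains and a log2FC of 0.010 (SE 0.074, adjusted p = 0.916). Neither sex lay above the other for these genes, and the standard errors leave room for small differences.

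The markers of other cells moved with sex too. The summed adipocyte markers had a median of 18372 CPM in females and 23386 CPM in males, those of fibroblasts and progenitors 1241 and 1735 CPM, and those of mural cells, which wrap vessels, 1023 and 1145 CPM. Mammary epithelial markers separated the sexes almost as the labels do, and with their sum as a covariate only 12 of 16765 genes were called. None of the 10 genes passed in that fit, in which the log2FC ran from -0.92 for *Prox1* to 0.34 for *Lyve1*, so the labelled sex and the content of mammary epithelium cannot be told apart in these libraries. The part of the adipocyte, fibroblast and mural markers was not tested.

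The lymphocyte markers divided the 59 strains into 19 with neither library high, 17 with both high, 15 with only the female library high and 8 with only the male library high. For most vessel genes the sex with high lymphocyte markers was the lower. The median female-minus-male difference of *Cdh5* was -0.43 (log2 CPM) where neither was high, -0.58 where both were, -1.09 where only the female was and 0.12 where only the male was. *Tek* went from -0.26, -0.18 and -1.0 to 0.49 over the same subsets, and *Kdr* from -0.29, -0.43 and -0.74 to 0.32. *Pecam1* stayed negative throughout, at -0.28, -0.32, -0.47 and -0.34. *Prox1* showed the opposite pattern, with medians of 0.45, 0.49, 2.54 and -1.62, and its female value was the higher in all 15 strains in which only the female library was high.

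**Figure D2:**
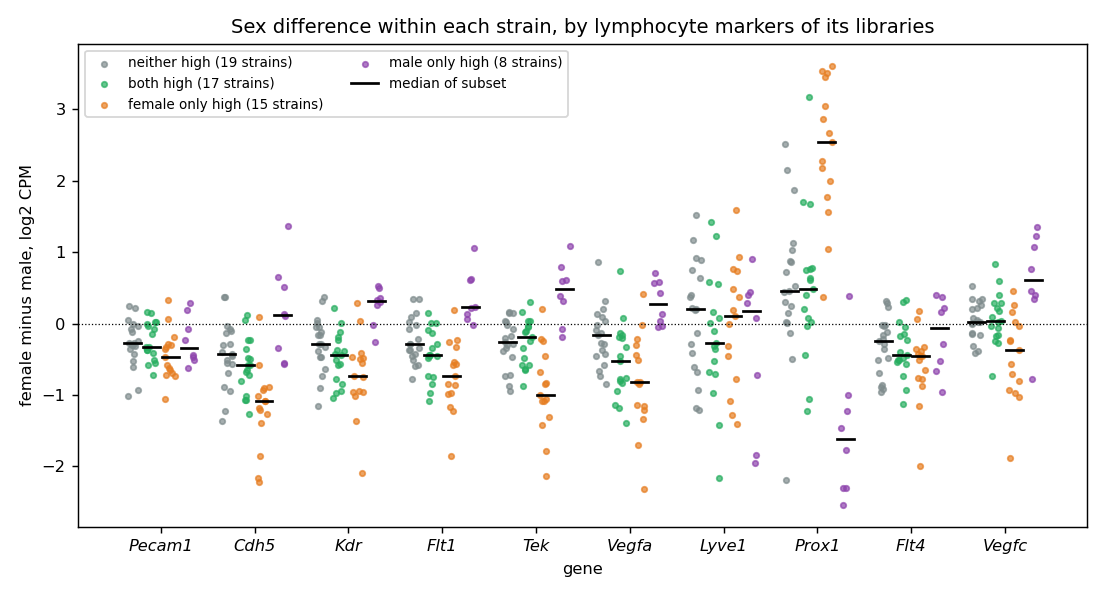
Female minus male log2 CPM of each gene in the 59 strains, by whether the lymphocyte markers were high in neither (19), both (17), only the female (15) or only the male library (8), with the median of each subset as a bar. The *Cdh5* medians are -0.43, -0.58, -1.09 and 0.12, and those of *Prox1* are 0.45, 0.49, 2.54 and -1.62.

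In the 19 strains with low lymphocyte markers in both libraries the sex difference of the vessel genes was smaller and mostly still passed the test. Of the 16105 genes tested there, 38.9% were called, 3375 lower and 2884 higher in females. There the log2FC was -0.27 for *Pecam1*, -0.42 for *Cdh5*, -0.27 for *Kdr*, -0.22 for *Flt1*, -0.26 for *Tek* and -0.30 for *Flt4*, with adjusted p from 0.00302 to 0.0224. *Vegfa*, at -0.17, did not pass (adjusted p = 0.161), and *Prox1* remained higher in females at 0.62 (adjusted p = 0.0456). With the lymphocyte markers as a covariate over all 59 strains, a setting chosen after seeing the data, the 7 lower genes were still called and *Prox1* was higher by 0.45 (adjusted p = 0.00211). That fit called 58.1% of all genes. Leaving out NZW/LacJ, the strain whose library labelled male went against the Y-linked genes, left 7 genes lower and 1 higher, where 60.7% of all genes were called. That strain had the largest excess of the female library for *Cdh5*, at 1.37, *Flt1*, at 1.06, and *Tek*, at 1.09, and its library labelled male was high in lymphocyte markers.

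Levels across all libraries showed the same split. The median of *Prox1* was 0.188 TPM in the 34 female libraries with low and 0.841 in the 33 with high lymphocyte markers, and 0.117 and 0.799 in the 42 and 32 male libraries. *Prox1* ranged from 0.0224 to 0.823 TPM in the 76 low libraries and from 0.127 to 2.38 in the 65 high ones, so the ranges overlapped. *Cdh5* went the other way, from a median of 115.5 to 77.6 TPM in females and from 164 to 103.5 in males. *Flt1* fell likewise from 33.6 to 23.3 TPM in females and from 37.3 to 26.6 in males in these medians. *Lyve1* differed little, with 9.67 and 11.7 TPM in females and 11 and 12.4 in males, and *Pecam1* had 144.6 and 142.2 in females and 177 and 157 in males. Because these library sets were defined from the data, no test was made between them.

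**Figure D3:**
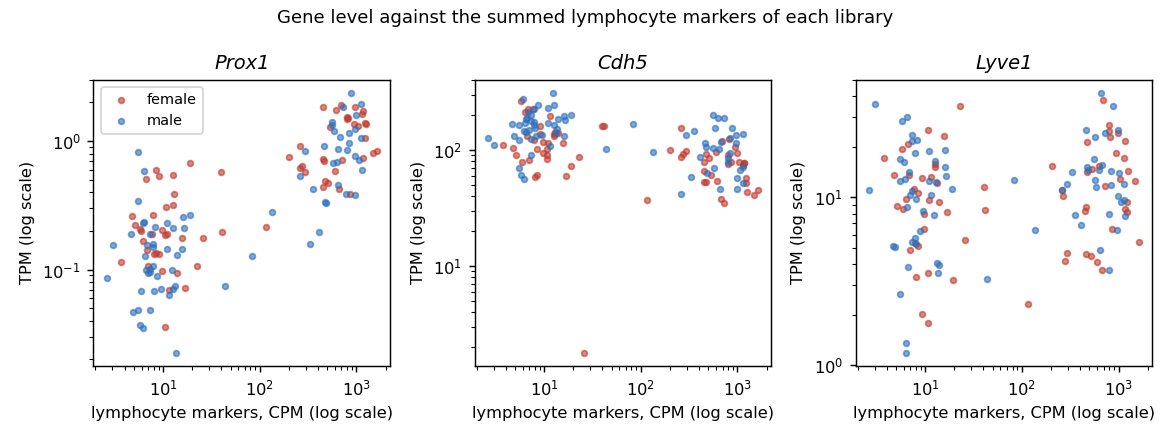
TPM of *Prox1*, *Cdh5* and *Lyve1* (log axis) against the summed CPM of 7 lymphocyte markers (log axis), 1 point per library, females red and males blue. *Prox1* tends to be higher where the markers are above 83.7 CPM, with overlapping ranges up to 0.823 and from 0.127 TPM, the medians of *Cdh5* are lower there, and *Lyve1* spans a similar range on both sides.

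Variation between strains was tested in the same paired libraries, with the female and the male library as the 2 samples of a strain. Strain differences were called for 9 of the 10 genes, against 71.2% of all genes tested, a share that leaves little to read from the count. The F statistic of the strain terms was largest for *Lyve1*, at 4.09 (edgeR, adjusted p = 1.21e-06), followed by *Pecam1* at 3.06 (adjusted p = 8.88e-05) and *Prox1* at 2.33 (adjusted p = 0.00218). *Vegfa* was the gene not called, with an F of 1.05 (adjusted p = 0.442). In the 19 strains with low lymphocyte markers 5 genes were called, against 65.2% of all genes tested there. *Cdh5*, *Kdr*, *Flt1* and *Prox1* no longer passed, with adjusted p of 0.0532, 0.0521, 0.161 and 0.0754.

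The female and the male level of a strain were also compared directly, by the correlation of log2 CPM over the 59 strains with a permutation test and Benjamini-Hochberg adjustment over 16862 genes. Of the 10 genes 6 passed, against 51.9% of all genes, whose median r was 0.30. *Lyve1* had the highest correlation, with r = 0.61 and rho = 0.56 (permutation p = 1e-05 for both, the smallest that 100000 resamples can give, adjusted p = 0.00010 and 0.00012). It was 0.56 without DBA/2J and CE/J, the strains farthest from the median, 0.77 in the 19 strains with neither library high in lymphocyte markers and 0.50 in the 17 with both high. *Pecam1* had r = 0.49 and rho = 0.43 (permutation, adjusted p = 0.000681 and 0.00314), and 0.54 and 0.50 within these subsets. *Vegfa* showed no such relation, with r = 0.037 and rho = 0.062 (permutation p = 0.781 and 0.641), and r = 0.024 and 0.050 within the subsets.

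Over all 59 strains the correlation was weaker for the junction and receptor genes. It was r = 0.39 for *Cdh5*, 0.37 for *Flt4* and 0.31 for *Kdr*, with permutation tests adjusted to 0.00756, 0.0120 and 0.0366, while *Flt1* at 0.29 and *Tek* at 0.28 had adjusted p of 0.0529 and 0.0575. Their rank correlations were 0.41, 0.37, 0.34, 0.35 and 0.37, and by rank *Flt1* and *Tek* also passed (permutation, adjusted p = 0.0194 and 0.0123). Where neither library was high in lymphocyte markers, these genes in the same order had r of 0.39, 0.42, 0.38, 0.29 and 0.49. Where both were high, r was 0.65, 0.48, 0.50, 0.26 and 0.55, against 0.50 for *Lyve1* and for *Pecam1*. For *Prox1*, the pooled r of 0.39 spans libraries low and high in the lymphocyte markers and was 0.22 and 0.26 within the subsets. *Vegfc* had r = 0.22 over all 59 strains (permutation, adjusted p = 0.131) but 0.63 in the 19 with neither library high (adjusted p = 0.0127) and 0.49 in the 17 with both high.

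**Figure D4:**
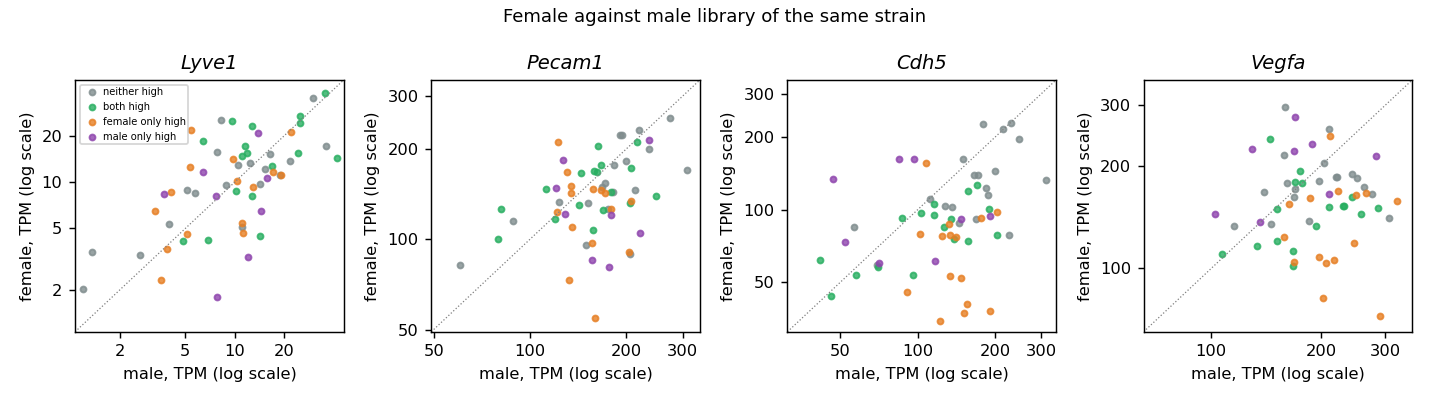
TPM of the female library against TPM of the male library in the 59 strains (log axes, dotted line of equality), coloured by the lymphocyte marker subset, for *Lyve1*, *Pecam1*, *Cdh5* and *Vegfa*. *Lyve1* rises along the line (r = 0.61 in log2 CPM), most *Cdh5* points lie below it, and *Vegfa* shows no relation (r = 0.037).

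Strains at the extremes can be named where both sexes were among the lowest or the highest 10 of 59, in TPM and in log2 CPM alike. *Lyve1* had the most such strains, 4 at the low and 5 at the high end. CE/J had 2.01 TPM in the female and 1.18 in the male, and BXD12/TyJ 3.52 and 1.35, whereas BXD74/RwwJ had 37.9 and 35.3 and AXB5/PgnJ 35 and 30.1. CE/J was not low in *Flt1*, with 39.1 and 42.1 TPM. BXD86/RwwJ was at the high end for 5 genes, namely *Pecam1*, *Cdh5*, *Kdr*, *Tek* and *Flt4*. SJL/J was low in both sexes for *Pecam1*, *Cdh5*, *Kdr* and *Tek*, with high lymphocyte markers in both libraries. *Lyve1* in SJL/J differed between its libraries, with 14.3 TPM in the female and 42.1 in the male.

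Large opposite values also occurred within a strain. AXB12/PgnJ had *Vegfa* at 72.5 TPM in the female and 290 in the male, *Cdh5* at 40.8 and 154 and *Prox1* at 0.808 and 0.0687. Its female library had 1490 CPM of lymphocyte markers and its male library 8.07. FVB/NJ had *Flt4* at 1.15 TPM in the female and 5.27 in the male and *Vegfc* at 1.86 and 8.04, with 668 and 6.65 CPM of lymphocyte markers. In both strains the library with the high lymphocyte markers was the one with the low vessel genes.

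The spread over strains within a sex differed by gene. The SD of log2 CPM was largest for *Prox1*, at 1.25 in females and 1.49 in males, and *Lyve1*, at 0.93 and 0.97, which was more than for 82.8% of genes in females and 88% in males. *Pecam1* varied least, with an SD of 0.35 and 0.33, below the median of all genes of 0.45 and 0.38. *Cdh5* had an SD of 0.75 in females, or 0.61 without BXD34/TyJ, and 0.59 in males, and *Kdr* 0.67, or 0.47 without that library, and 0.42.

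Between the strain families the question is whether shared ancestry sets a level. In females a family difference was called for 1 of the 10 genes, *Pecam1*, against 26.2% of 18281 genes (edgeR, adjusted p = 0.00189), and in males for none, against 13.5% of 17631 genes. In males no gene of the 10 had an unadjusted p under 0.05 in that test, and neither limma-voom nor DESeq2 called any. *Pecam1* ranged in classical females from 72.9 TPM in MA/MyJ over 125.9 to 214 in PL/J, in the RwwJ females of the BXD family from 81 in BXD50/RwwJ over 170 to 277 in BXD69/RwwJ, in the TyJ females from 54.6 in BXD14/TyJ over 115 to 244 in BXD27/TyJ, and in AXB and BXA females from 95.7 in AXB5/PgnJ over 150 to 184 in AXB19b/PgnJ. The families overlapped.

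In females, BXD minus classical was 0.41 for *Pecam1* on the log2 CPM scale (SE 0.095, edgeR, adjusted p = 0.00150), and it was the only call among the 10 genes, where 9.70% of all genes were higher and 5.31% lower. Without the libraries that went against the Y-linked genes it was 0.39 (adjusted p = 0.00810), and the number of all genes called in either direction went from 2743 to 896. In TPM, which carry no TMM scaling, the difference was 0.17 and did not pass (limma, adjusted p = 0.327). On log2(TPM + 1) the median of all genes was also shifted in this contrast, to -0.18. With edgeR and without libraries high in lymphocyte markers, the *Pecam1* difference was 0.36 (adjusted p = 0.0787). In males, where 9.52% of all genes were called in this contrast and none of the 10, *Pecam1* had 0.14 (SE 0.088, adjusted p = 0.327). A limma-voom fit of both sexes with strain as a correlated block, which estimates 1 effect shared by the sexes, called it at 0.27 (adjusted p = 0.00376). *Prox1* was lower in BXD than in classical strains without passing, at -0.60 (SE 0.35, adjusted p = 0.253) in females and -0.52 (SE 0.40, adjusted p = 0.425) in males, and with the lymphocyte markers as a covariate it was -0.65 in females (adjusted p = 0.0181).

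The remaining contrasts gave no call among the 10 genes. Of all genes, 2.02% were called for AXB and BXA minus classical in females and 1.18% in males, 6.00% and 2.05% for AXB and BXA minus BXD, and 18.8% and 4.32% for RwwJ minus TyJ. Without the libraries that went against the Y-linked genes, the share in females was 3.4% for AXB and BXA minus classical, 1.90% for AXB and BXA minus BXD and 4.12% for RwwJ minus TyJ. With AXB19a/PgnJ and AXB19b/PgnJ left out instead, it was 1.12%, 2.16% and 18.4% in the same order. At an unadjusted p under 0.05 there were 1 gene in females (*Pecam1*, 0.28) for AXB and BXA minus classical, and 4 in females (*Cdh5*, *Tek*, *Flt4* and *Vegfc*) and 1 in males (*Flt4*) for RwwJ minus TyJ. The same threshold was passed, in that order, by 2628 of 18281, 5505 of 18281 and 3614 of 17631 of all genes. *Tek* came nearest in the last contrast, at 0.58 in females (SE 0.22, adjusted p = 0.0536), where TyJ females ranged from 4.18 TPM in BXD34/TyJ, or 7.76 in BXD38/TyJ, over 13.7 to 25.4 in BXD24/TyJ-Cep290<rd16>/J and RwwJ females from 14.9 in BXD50/RwwJ over 27.2 to 42.4 in BXD86/RwwJ. It passed without libraries high in lymphocyte markers, at 0.70 (adjusted p = 0.0237), and with those markers as a covariate, also at 0.70 (adjusted p = 0.000475). Both of these settings kept the library labelled BXD34/TyJ. *Tek* was not called in the settings that left that library out, without libraries against the Y-linked genes or without the shallowest ones. DESeq2 and limma-voom called no gene of the 10 in these contrasts. On log2(TPM + 1), without TMM scaling, 9 of the 10 were higher in RwwJ than in TyJ females, but there the median of all genes was also shifted, by 0.41.

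The parents of the recombinant strains, and BALB/cJ for the CXB family, did not sit at 1 end. C57BL/6J had *Lyve1* at 14.2 TPM in the female and 9.73 in the male, and DBA/2J, the other BXD parent, at 1.79, the lowest of 67 females, and 7.84. *Cdh5* was 92.2 and 175 TPM in C57BL/6J, 91.3 and 147 in DBA/2J, 78.5 and 225 in A/J, 58.1 and 70 in BALB/cJ and 78.8 and 203 in C3H/HeJ. A/J stood out by its male library, which ranked 73 of 74 for *Vegfa*, at 307 TPM, and 72 of 74 for *Tek*, at 42.3, while its female library had 140 and 17.7 TPM, and both A/J libraries were low in lymphocyte markers. Each of these values is from 1 library.

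Whether the sex difference was of a different size in the 26 BXD strains than in the other 33 was tested with a sex by BXD term. No gene of the 10 and none of the 16765 genes was called by edgeR, with 314 at an unadjusted p under 0.05, and limma-voom also gave 0, with 422. For *Cdh5* the mean female-minus-male difference was -0.50 ± 0.50 (SD, n = 26) in BXD strains and -0.66 ± 0.75 (SD, n = 33) in the others, and the interaction term was 0.16 (SE 0.17). For *Prox1* the means were 0.75 ± 1.66 and 0.72 ± 1.51, with a term of 0.0056 (SE 0.40). Terms of the other genes lay between 0.056 for *Vegfc* and 0.18 for *Vegfa*.

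Across strains, the vessel genes rose and fell together. Among the 42 male libraries with low lymphocyte markers, the correlation of log2 CPM was 0.92 between *Pecam1* and *Cdh5*, 0.82 between *Cdh5* and *Tek*, 0.75 between *Cdh5* and *Kdr* and 0.84 between *Cdh5* and *Flt4*. In the 33 such female libraries other than BXD34/TyJ it was 0.93, 0.73, 0.71 and 0.90 for the same pairs. With BXD34/TyJ included the r of *Pecam1* and *Cdh5* in females was 0.41. These values are descriptions over libraries that share the tissue's make-up and depth. In these libraries *Lyve1* had r of 0.27 with *Cdh5* in the females and -0.076 in the males, and *Prox1* -0.23 and 0.11. *Lyve1* and *Prox1* had r of -0.16 with each other in the females and 0.36 in the males. In the 33 female and 32 male libraries with high lymphocyte markers the lymphatic genes were more closely related, with r of 0.66 and 0.44 between *Lyve1* and *Prox1*, 0.63 and 0.40 between *Lyve1* and *Flt4* and 0.45 and 0.40 between *Prox1* and *Flt4*. There *Flt4* and *Cdh5* had r of 0.48 and 0.74.

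The relation of *Vegfa* to the genes of its receptors differed between library sets. In the 42 males low in lymphocyte markers its r was 0.31 with *Kdr*, 0.063 with *Flt1* and -0.14 with *Cdh5*. In the 33 such females it was 0.41, 0.56 and 0.16, and with BXD34/TyJ included 0.84, 0.81 and 0.75. In the 33 females high in lymphocyte markers, which do not include BXD34/TyJ, it was 0.76, 0.91 and 0.64, and in the 32 such males 0.54, 0.61 and 0.36. *Vegfc* and its receptor gene *Flt4* had r of 0.27 in the females and 0.52 in the males low in these markers.

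**Figure D5:**
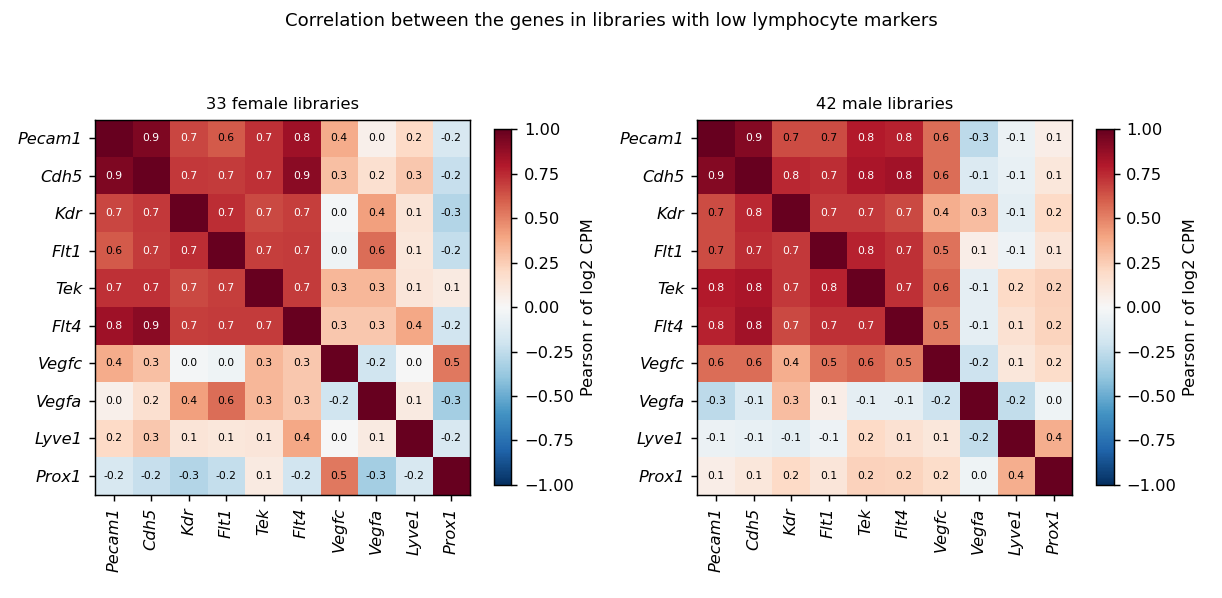
Pearson r of log2 CPM between the 10 genes (color scale from -1 to 1) in the 33 female libraries with low lymphocyte markers, without BXD34/TyJ, and in the 42 male ones. *Pecam1*, *Cdh5*, *Kdr*, *Flt1*, *Tek* and *Flt4* form a block of high values, up to 0.93 in females and 0.92 in males, and *Vegfa*, *Lyve1* and *Prox1* stand outside it.

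The genes most like each of the 10 were taken as those with the highest r of log2 CPM, centred within sex, over all libraries, among 15081 genes. For *Cdh5* they were *Fgd5*, at 0.96, *Dock6*, at 0.94, and *Pcdh1*, at 0.92, for *Kdr* *Adgrl4*, at 0.90, *Cdh5* and *Fgd5*, for *Tek* *Fgd5*, at 0.92, *Cdh5* and *Ptprm*, and for *Flt1* *Shank3*, at 0.92, *Adgrf5* and *Arap3*. *Pecam1* had *She*, at 0.83, *Sncaip* and *Erg*, which encodes an endothelial transcription factor, and *Flt4* had *Ripor1*, at 0.85, *Fgd5* and *Dchs1*. *Fgd5* thus appeared beside 4 of the genes. *Vegfa* had *Pim3*, at 0.79, *2700081O15Rik* and *Npr2*, and *Vegfc* *Afap1l2*, at 0.78, *Pdia5* and *Ddb1*. *Lyve1* had *Ildr2*, at 0.64, *Sema3d* and *Fcna*. For *Prox1*, *Tenm3* at 0.88, *Timd4* at 0.87 and *P2ry13* at 0.86 span libraries low and high in the lymphocyte markers. In the 76 libraries low in these markers their r was 0.61, 0.43 and 0.39.

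The wider pathway lists, chosen with earlier results known, gave the following counts for sex, beside the 29.8% of all genes that were lower and the 28.4% that were higher. These lists contain the 10 genes themselves, so calls given above are counted again. *Kdr*, *Flt1*, *Flt4* and *Tek* are among the receptors, *Pecam1* and *Cdh5* among the identity genes and *Vegfa* and *Vegfc* among the ligands. *Flt4* and *Nrp2* stand in both the receptor and the lymphatic list. All 10 receptors and co-receptors were lower in females, with a median log2FC of -0.37, led by *Ramp2*, part of the adrenomedullin receptor, at -0.59 (SE 0.075, adjusted p = 8.69e-10), and *Tie1*, an orphan relative of *Tek*, at -0.52 (SE 0.071, adjusted p = 6.32e-09). Of 20 endothelial identity genes 19 were lower, with a median of -0.38, among them the transcription factor gene *Sox7* at -0.70 (SE 0.094, adjusted p = 3.25e-09), and only *Vwf*, at 0.12, did not pass (adjusted p = 0.223). Of 10 ligands tested from a list of 11, 7 were lower and 1 was higher, with a median of -0.26, *Apln*, which encodes apelin, at -0.79 (SE 0.17, adjusted p = 4.28e-05) and *Ccbe1*, needed for VEGF-C processing, at 0.71 (SE 0.16, adjusted p = 0.000165).

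Arterial and venous genes were divided. Of 13, 7 were lower, led by the Notch ligand gene *Dll4* at -0.65 (SE 0.092, adjusted p = 1.85e-08) and *Notch4* at -0.55 (SE 0.076, adjusted p = 1.24e-08), and 3 were higher, led by *Hey1*, a Notch target, at 0.59 (SE 0.11, adjusted p = 1.27e-05) and *Ackr1*, a chemokine-binding protein of venules, at 0.21 (SE 0.067, adjusted p = 0.00564). Of 9 lymphatic genes 4 were higher, with *Pdpn*, which encodes podoplanin and is also made by fibroblasts, at 0.62 (SE 0.082, adjusted p = 3.51e-09) beside *Prox1*, and 2 were lower, *Flt4* and *Nrp2*, a co-receptor, the latter at -0.33 (SE 0.061, adjusted p = 3.75e-06), with a median of -0.015 over the list. Of 7 genes of the hypoxia response and *Vegfa* control, 6 were lower, including *Epas1* at -0.33 (SE 0.069, adjusted p = 3.37e-05) and *Ppargc1a* at -0.31 (SE 0.090, adjusted p = 0.00221). The exception was *Egln3*, which encodes a hydroxylase that marks hypoxia-inducible factors for destruction, at 1.67 (SE 0.14, adjusted p = 7.08e-16), higher in the female of 54 of 59 strains with medians of 7.22 and 2.02 TPM.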

How the data were processed

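RNA was measured in subcutaneous (inguinal) adipose tissue of 67 female and 74 male mice, each library grouped by the sex and strain in its labels. The authors prepared stranded, paired-end mRNA libraries and quantified them with kallisto 0.46.1 (build mm10) and tximport. Estimated counts per gene, as deposited, were not normalized between libraries, and 30.2% of them are not whole (tolerance 1e-06). The deposited TPM values were adjusted by the authors for transcript length and library size, so depth cannot be read from them. Library totals ran from 6269154 to 78562648 counts, and depth limits mainly *Prox1*, with a median of 47 counts. Of 36558 genes 35935 were paired with a symbol.

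Counts were rounded, filtered with filterByExpr and scaled by TMM. Sex was tested with edgeR 4.0.16 (R 4.3.3) in a model of strain and sex, which pairs the 2 libraries of a strain because they share an inbred genotype (median r between them over all genes 0.30). Families were tested in each sex, and adjusted p (Benjamini-Hochberg over all genes) under 0.05 was called. Log2 CPM used a prior count of 2. Correlations between sexes used 100000 permutations, two-sided. A library was called high in lymphocyte markers above 4 times the median sum. The single genes of that sum are not reported here. Scripts were tested on simulated data. Alternatives were DESeq2 1.42.0, limma 3.58.1 with voom or on log2(TPM + 1) and log2(TPM + 0.1), other scalings and filters, no strain term, covariates and libraries left out. Python 3.11.15 was used for the rest. The text names the 10 genes, their 3 most correlated genes, the 2 strongest of each pathway list per direction, extreme strains and parents, and *Vwf* was named after its value was seen, as were the strains at the same end in both sexes. The 10 genes and all lists were chosen with earlier results of these data known.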

Additional observations from a re-analysis of the deposited data

Results flagged for a closer look

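In the 9 TyJ females of the BXD family, the library labelled BXD34/TyJ lay far below the others for 3 of the 10 genes. Its gap to the nearest library, as a share of the whole range, was 0.79 for *Kdr*, with 0.599 TPM, 0.66 for *Flt4*, with 0.0866 TPM, and 0.58 for *Cdh5*, with 1.78 TPM. Log2 CPM of *Kdr* was 3.34 there against 6.90 to 7.85 in the other 8 libraries, that of *Flt4* 0.76 against 3.41 to 4.76 and that of *Cdh5* 4.39 against 6.91 to 8.75. Groups of this size were examined for 20 combinations of gene and strain family, all of them female, in which chance gives about 1 in 20. The same library had 6269154 counts, 29.9% of them from mitochondrially encoded genes, and Y-linked genes that go against its label, and the part of these in its low values was not tested.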

How the results depend on the processing

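The 7 lower genes were called under every scaling, filter and tool tried, with or without the strain term, and 6 of them in the strains low in lymphocyte markers. In those strains 38.9% of all genes were called. With the mammary markers as a covariate, chosen after seeing the data, 0 were lower and 0 higher, and the log2FC changed sign, to 0.046 for *Pecam1*, 0.25 for *Cdh5*, 0.19 for *Kdr*, 0.20 for *Flt1*, 0.26 for *Tek*, 0.18 for *Vegfa*, 0.34 for *Lyve1*, -0.92 for *Prox1* and 0.24 for *Flt4*. The genes that were not called also changed sign, *Lyve1* to 0.046 with library totals, 0.0021 on log2(TPM + 0.1) and 0.097 without strains high in lymphocyte markers, and *Vegfc* to -0.012 without mitochondrially encoded genes, -0.0075 with no filter and -0.013 without NZW/LacJ. With at least 10 counts in every library 0 genes were higher, because *Prox1* was not tested. With library totals 72.5% of the calls over all genes were higher in females, against 48.8% with TMM, and the median of all genes was 0.12.

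Without the replicate block, that is without pairing the libraries of a strain, 0 genes were higher, as *Prox1* was 0.43 in the matched libraries (adjusted p = 0.150) and 0.38 in all libraries (adjusted p = 0.163), and *Vegfc* was -0.0043 in all libraries. The block changed no other call among the 10 genes.

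Strain differences numbered 5, against 65.2% of all genes, and correlated genes 3 in the 19 strains low in lymphocyte markers, a setting with fewer strains. In females, family differences numbered 4 with library totals, 8 on log2(TPM + 1), 8 on log2(TPM + 0.1), and 6 with the lymphocyte covariate. Of all genes, 25.3%, 45.3%, 46.8% and 37.4% were called in these fits. Calls over the 4 contrasts numbered 4, 9, 10 and 6 in these settings and 2 without libraries high in lymphocyte markers. In the same order, RwwJ minus TyJ alone called 20.1%, 47.4%, 49.9%, 23.2% and 16.3% of all genes. A limma-voom fit of both sexes with strain as a correlated block, whose family effects are shared by the sexes, gave 3 family differences and 1 contrast, against 1 and 1 in females and 0 in males fitted alone. That fit called 24.8% of all genes for family and 15.4% for BXD minus classical. The cause of these changes was not tested. Leaving out each library in turn was not run, as groups held more than 5 libraries. Depth limits *Prox1*, with a median of 47 counts.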

Other observations

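Ratios of TPM within a library, which do not depend on its total, also differed in how often the female of a strain was the higher. *Cdh5* over *Pecam1* had a median of 0.722 in females and 0.856 in males and was the higher in the female of 10 of 59 strains. *Kdr* over *Pecam1*, with 0.290 and 0.301, and *Tek* over *Pecam1*, with 0.151 and 0.152, were the higher in the female of 25 and 28 strains. The decoy receptor over the signaling receptor, *Flt1* over *Kdr*, had medians of 0.675 and 0.642 and was the higher in the female of 35, with 11.3 in the library labelled BXD34/TyJ female.

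Among the lymphatic genes, *Prox1* over *Lyve1* had a median of 0.0507 in females and 0.0223 in males and was the higher in the female of 46 of 59 strains, and *Vegfc* over *Flt4*, ligand over receptor, had 1.24 and 1.04 and was the higher in the female of 49. *Vegfa* over *Kdr*, the corresponding ratio of the blood vessel pair, had 4.11 and 3.88 and was the higher in the female of 29. *Prox1* over *Lyve1* differed more by lymphocyte markers than by sex. Its medians were 0.0202 in females and 0.0135 in males low in these markers, and 0.0856 and 0.0683 in those high in them. These ratios were not tested.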
